A study of Mus musculus with 6 samples.

Results

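The EGF family here is a set of 8 genes chosen by name from the deposited count table: the receptor genes Egfr and Erbb2, the ligand genes Ereg, Areg, Hbegf, Tgfa and Nrg1, and the receptor inhibitor gene Errfi1. Each of the 8 had 1 row among the 55494 rows of the table, and all 8 were among the 16097 genes that passed the filter on low counts and were tested. Bulk RNA sequencing was used to ask what 11,12-EET does to the transcriptome of mouse muscle stem cells, which carry Pax7 and rebuild injured muscle fibres. The EET group held 3 libraries of primary muscle stem cells of wildtype mice cultured for 2 days with 11,12-EET, an epoxyeicosatrienoic acid made from arachidonic acid by cytochrome P450 enzymes. The control group held 3 libraries of the same wildtype cells cultured for 2 days without it. The labels give no dose, control medium, age or number of mice. The labels number the replicates but name no separate mice or dishes for them. The spread behind every p-value is thus the spread of these 6 libraries and could be technical.

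EGF family ligands are made as membrane-anchored precursors and are cut loose by ADAM metalloproteases. The freed ligand makes ErbB receptors pair, and the paired kinases switch on the RAS-MAPK and PI3K-AKT pathways. EGFR binds epiregulin, amphiregulin, HB-EGF and TGF-alpha. ERBB2 has no ligand of its own and acts as a partner, and neuregulin 1 binds ERBB3 and ERBB4. ERRFI1, also called MIG6, is induced by receptor signalling and blocks the receptor kinase, which makes it a feedback inhibitor. In muscle, EGFR is known for its part in satellite cell polarity and survival, and neuregulin for its action at the neuromuscular junction and on Schwann cells.

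The promoters of Areg and Errfi1 are shown, chosen after the motif matches were seen. Both hold the same cyclic AMP response element (CRE), the palindrome TGACGTCA bound by CREB and ATF factors, close to the start site. The pair was also chosen because, on the counts as given, Areg was called higher and Errfi1 lower with EET. Neither call held in every fit described below. The windows run from 250 bases before the start site to 50 after it (RefSeq, GRCm38.p6). That of Areg is chr5:91139349-91139648 and that of Errfi1 chr4:150854820-150855119, both on the plus strand. The capitals mark the CRE, which begins 61 bases before the start site in Areg and 51 before it in Errfi1.
Areg: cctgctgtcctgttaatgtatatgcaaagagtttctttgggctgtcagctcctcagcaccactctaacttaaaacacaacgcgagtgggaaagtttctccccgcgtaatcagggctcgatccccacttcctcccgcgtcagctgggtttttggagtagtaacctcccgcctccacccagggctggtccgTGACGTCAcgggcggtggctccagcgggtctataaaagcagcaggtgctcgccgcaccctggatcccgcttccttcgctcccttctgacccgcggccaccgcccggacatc
Errfi1: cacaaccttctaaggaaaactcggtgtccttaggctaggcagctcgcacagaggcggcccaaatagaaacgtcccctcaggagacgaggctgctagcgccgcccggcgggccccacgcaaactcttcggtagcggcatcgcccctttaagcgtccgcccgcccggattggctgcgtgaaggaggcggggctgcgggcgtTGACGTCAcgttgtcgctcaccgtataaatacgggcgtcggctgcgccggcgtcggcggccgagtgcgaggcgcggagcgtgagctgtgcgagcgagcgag
Of the 8 genes, 5 had a window in the RefSeq table (Egfr, Erbb2, Areg, Tgfa and Errfi1, Errfi1 with 2), and these 6 windows were searched on both strands for TGACGTCA, the AP-1 motif TGANTCA, the core GCGTG of the site bound by the aryl hydrocarbon receptor, and the GC box GGGCGG. The CRE was in 1.79% of all 32851 windows of this length. Among the members only the 2 windows shown held it. The core GCGTG, which 32.4% of all windows hold, had 3 matches in the Errfi1 window shown, 1 in Tgfa, 1 in Erbb2 and none in Areg or Egfr. The GC box (35.7% of all windows) matched in Areg, Tgfa, Egfr and that Errfi1 window, and the AP-1 motif (7.81%) matched in none. These matches describe letters in a window and say nothing of binding.

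With EET, 2 of the 8 genes were higher and 5 lower, while 24.6% of all genes tested were higher and 23.3% lower, 47.9% in all (edgeR quasi-likelihood test on counts scaled by TMM factors, Benjamini-Hochberg adjusted p under 0.05). Areg and Ereg rose. Egfr, Erbb2, Tgfa, Nrg1 and Errfi1 fell, and Hbegf was not called. The CPM (counts scaled to a common library size with TMM factors) of the EET libraries lay wholly above the controls for 2 members and wholly below for 6, which 29.6% and 28.0% of all genes tested also did. The members' median log2 fold change was −0.21, against 0.005 for all genes tested.

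Fold changes in these libraries followed mRNA length, and this bears on each member. The Spearman rho between mRNA length and log2 fold change was −0.68 in 13809 protein-coding genes (length of the longest coding transcript), a description across genes, which are not replicates. Relative to the average library, log2 CPM changed per doubling of length by −0.269, −0.215 and −0.111 in EET libraries 1, 2 and 3, and by 0.116, 0.236 and 0.243 in control libraries 1, 2 and 3. EET 3 and control 1 lay closest to each other. Every member was also fitted with each library's smooth trend on length and GC content removed, so that its value is relative to mRNAs of like length and composition. In that fit 1 member was higher (Ereg) and 2 were lower (Hbegf and Errfi1), against 17.5% of all genes higher and 14.7% lower (32.2% in either direction), and the other 5 were not called.

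**Figure D1:**
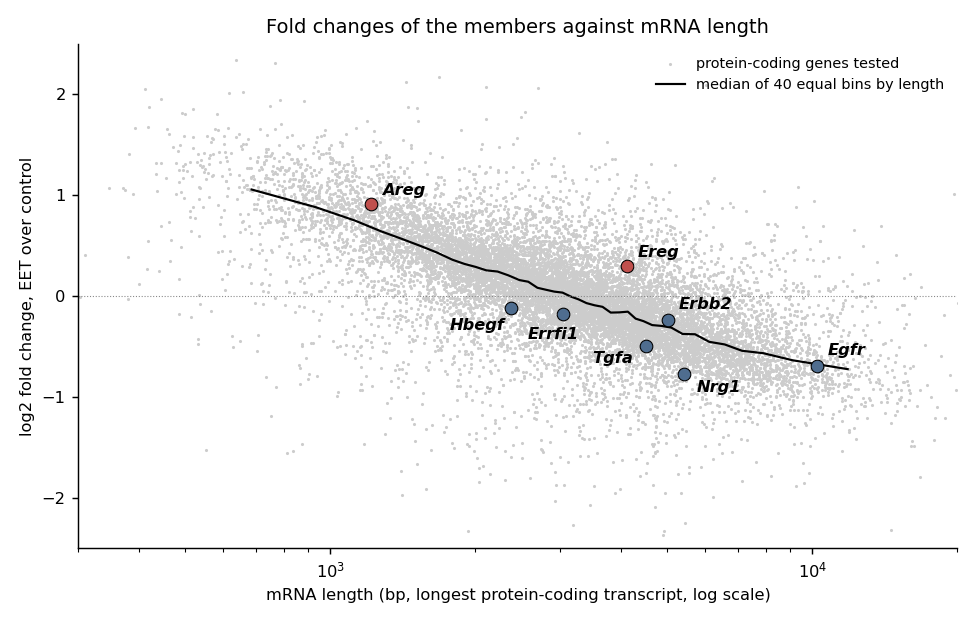
Log2 fold change (EET over control, as counted) against mRNA length in bp on a log axis for the protein-coding genes tested (grey) and the 8 members (red above 0, blue below 0); the line joins medians of 40 equal bins by length. Egfr, at 10208 bp, lies on the line at −0.69, Ereg, at 4128 bp, lies above it at 0.30, and Hbegf, at 2375 bp and not called here, lies below it at −0.12.

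Egfr, the receptor of most ligands in this set, fell as counted. It had 91.8, 95.8 and 108.7 CPM in EET libraries, against 145.3, 170.6 and 163.0 CPM in control libraries. The groups did not overlap, and the pair of libraries closest to each other was again EET 3 and control 1. The mean was 98.8 ± 8.85 CPM with EET and 159.6 ± 13.0 CPM in controls (SD, n = 3 each), a log2 fold change of −0.69 ± 0.08 (SE, adjusted p = 1.04e-05). The mRNA of Egfr (chromosome 11, 16752203 to 16918158, plus strand, GRCm38) is the longest of the set at 10208 bp. In its length class of 9000 bp and over, the median log2 fold change of 537 coding genes was −0.70, and 72.8% of them were lower. Once the trend was removed, Egfr was at −0.06, with a 95% interval of −0.16 to 0.04 (adjusted p = 0.366).

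Erbb2, the partner receptor, had 46.4, 40.6 and 45.1 CPM in EET libraries, against 53.9, 52.0 and 50.5 CPM in control libraries. Every EET library was below every control, by a smaller margin than for Egfr. The log2 fold change was −0.24 ± 0.08 (adjusted p = 0.0209). The call was lost without control 1 (adjusted p = 0.0562), control 2 (0.0643) or EET 2 (0.115). Removing the trend turned the direction, to 0.09 (interval −0.05 to 0.23, adjusted p = 0.319). Erbb2 is also on chromosome 11 (98412470 to 98437716, plus strand), and its mRNA is 5012 bp long.

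Errfi1, the feedback inhibitor, was by far the most abundant member. Its CPM was 863.1, 893.4 and 968.5 in EET libraries, against 1014.5, 1049.4 and 1031.9 in control libraries. All EET libraries were below all controls, and their spread (CV 5.98%, against 1.69% in controls) was the wider. Its log2 fold change was −0.18 ± 0.07 (adjusted p = 0.0316), or −0.16 ± 0.04 with the trend removed (adjusted p = 0.00738). As counted, the call was lost without control 2 (adjusted p = 0.124), control 3 (0.0842), EET 1 (0.134) or EET 2 (0.118). In the fit without the trend it was lost without control 2 (0.055), EET 1 (0.0546) or EET 2 (0.0531). Per kilobase of mRNA, Errfi1 ranked 201 from the top among 13809 coding genes with EET and 111 from the top in controls. These ranks are as counted, and the part of the length trend in their shift was not tested. The gene is on chromosome 4 (150853919 to 150868892, plus strand), and its mRNA is 3043 bp long.

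Areg, which encodes amphiregulin, showed the largest rise of the set as counted. It had 9.07, 8.93 and 7.11 CPM in EET libraries, against 5.04, 4.13 and 4.20 CPM in control libraries. EET 3 was the lowest of its group and control 1 the highest of its group, the reverse of what Egfr showed. The raw counts behind these values were 318, 279 and 229 with EET and 192, 154 and 132 in controls. Areg rose 1.88-fold (log2 fold change 0.91 ± 0.16, adjusted p = 0.000258), a call that held when any 1 library was left out (0.85 to 1.01). Its mRNA of 1215 bp is the shortest of the set, in a class of 1000 to 2000 bp where 63.8% of coding genes were higher at a median of 0.48. Against mRNAs of like length and GC content Areg was at 0.27 (interval −0.03 to 0.56) and was not called (adjusted p = 0.172).

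Ereg, which encodes epiregulin, rose in both fits. Its level was 24.8, 23.5 and 25.4 CPM in EET libraries, against 20.6, 20.0 and 19.3 CPM in control libraries. The groups did not overlap, and each was tight, at CVs of 3.83% with EET and 3.11% in controls. Ereg rose by 0.30 ± 0.09 on the log2 scale (1.23-fold, adjusted p = 0.0115), and the call was lost without control 3 (adjusted p = 0.0542). Of coding genes of 3000 to 4500 bp, the class of Ereg at 4128 bp, 11.0% were higher and 25.6% lower, at a median of −0.11. Relative to the trend Ereg was higher by 0.46 ± 0.09 (1.38-fold, adjusted p = 0.000296), and this call held without any 1 library (0.41 to 0.52, highest adjusted p = 0.00332). No other member was called higher in both fits.

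Ereg and Areg are neighbours. In GENCODE M21 the ligand genes Epgn, Ereg, Areg and Btc lie in that order within 375.5 kb of chromosome 5, with no other protein-coding gene between them. Ereg (91074622 to 91093646, plus strand) ends 46.0 kb before the start of Areg (91139599 to 91148432, plus strand). Btc, which encodes betacellulin, lies 208.8 kb further on the minus strand (91357261 to 91402994). While Areg and Ereg rose, Btc fell, with 11.3, 13.8 and 13.3 CPM in EET libraries, against 15.8, 16.8 and 17.3 CPM in control libraries. The groups did not overlap for Btc. Its log2 fold change was −0.38 ± 0.11 (adjusted p = 0.0101), or −0.44 with the trend removed (adjusted p = 0.00148), and as counted the call was lost without EET 1 (−0.30, adjusted p = 0.0538). Epgn, which encodes epigen, was at 0.678 ± 0.30 CPM with EET and 0.498 ± 0.124 CPM in controls (SD, n = 3 each), and was not called (adjusted p = 0.461).

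Hbegf, which encodes HB-EGF, was the most abundant ligand mRNA. It had 59.6, 57.8 and 57.7 CPM in EET libraries, against 63.2, 62.7 and 65.0 CPM in control libraries. Both groups were tight, with CVs of 1.81% and 1.94%, and they did not overlap. The log2 fold change of −0.12 ± 0.07 was not called (interval −0.27 to 0.03, adjusted p = 0.165). With the trend removed Hbegf was lower, at −0.26 ± 0.06 (adjusted p = 0.00123), and this call held without any 1 library (−0.29 to −0.23, highest adjusted p = 0.0142). With library totals in place of TMM factors it was also called lower as counted (−0.19, adjusted p = 0.0397). Its mRNA of 2375 bp falls in a class of 2000 to 3000 bp in which 31.3% of coding genes were higher and 5.24% lower. Hbegf is on chromosome 18 (36504927 to 36515805, minus strand).

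Tgfa, which encodes TGF-alpha, had 3.85, 4.22 and 4.16 CPM in EET libraries, against 5.94, 5.63 and 5.72 CPM in control libraries. All EET libraries were below all controls. Tgfa had a log2 fold change of −0.50 ± 0.16 (adjusted p = 0.0155) and stayed called without any 1 library (highest adjusted p = 0.0493). With the trend removed it was at −0.20 (interval −0.54 to 0.13, adjusted p = 0.357). The gene is on chromosome 6 (86195223 to 86275719, plus strand), and its mRNA is 4527 bp long.

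Nrg1, which encodes neuregulin 1, was the weakest member, with raw counts of 29, 48 and 42 in EET libraries and 76, 80 and 66 in control libraries. This gave 0.827, 1.54 and 1.30 CPM with EET, against 2.00, 2.14 and 2.10 CPM in controls. The EET libraries varied by a CV of 29.6%, against 3.60% in controls. Nrg1 had a log2 fold change of −0.77 ± 0.28 (adjusted p = 0.0352). Its call was lost without control 1 (adjusted p = 0.0591), control 2 (0.0978), control 3 (0.0842) or EET 1 (0.134), and with no filter on low counts (0.0507). With the trend removed it was at −0.42 (interval −1.01 to 0.17, adjusted p = 0.277). Nrg1, on chromosome 8 (31814551 to 32884029, minus strand), has 12 coding transcripts in GENCODE M21, which gene-level counts do not separate.

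**Figure D2:**
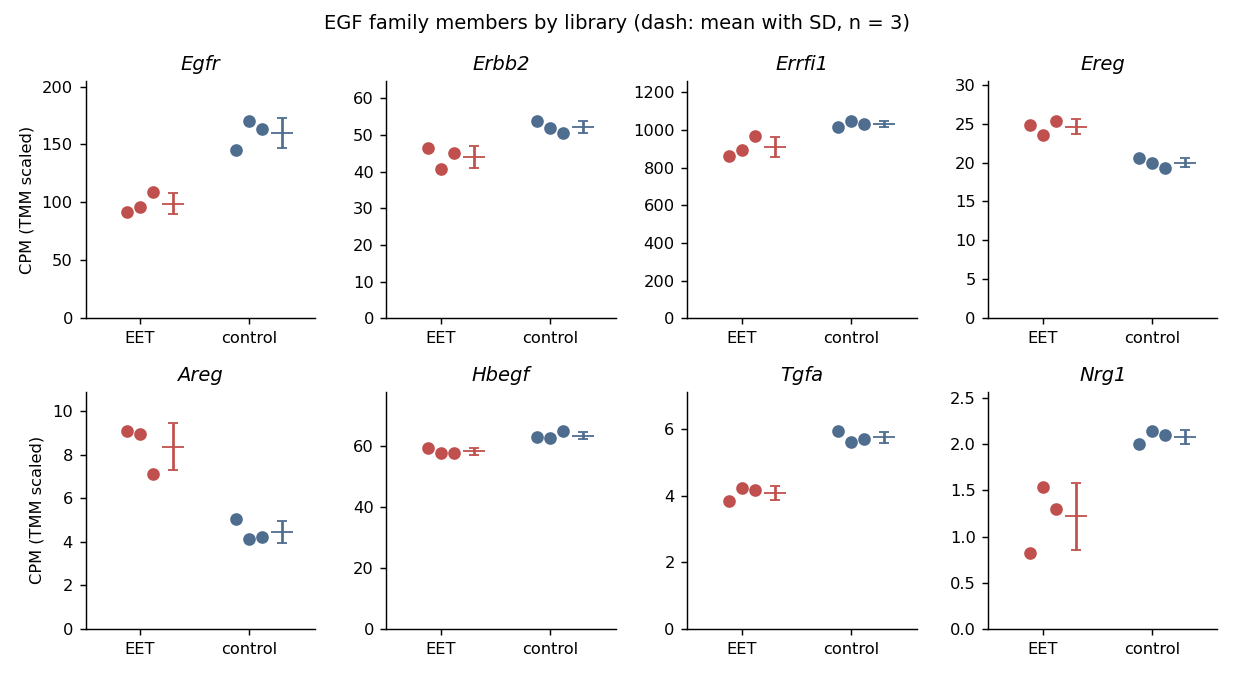
CPM (TMM scaled, y axes from 0) of each member in the 3 EET (red) and 3 control (blue) libraries, with the mean and SD beside the points. Ereg and Areg lie higher in all EET libraries, the other 6 lie lower, and the gap is widest relative to the level for Areg (8.37 and 4.46 CPM on average).

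**Figure D3:**
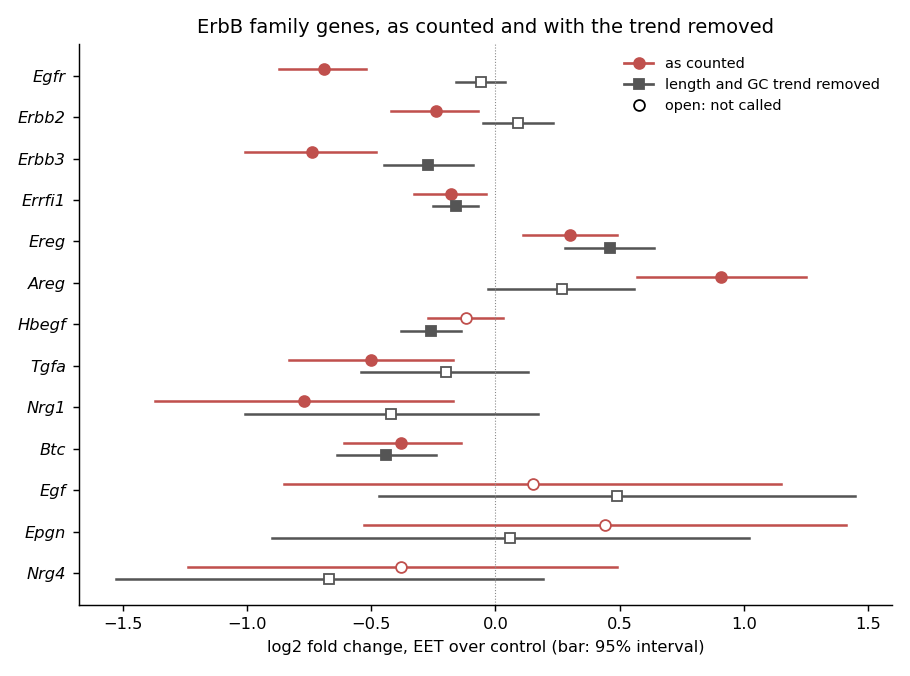
Log2 fold changes (EET over control) with 95% intervals for the 8 members and the other tested ErbB genes, as counted (red circles) and after removal of the trend on length and GC (grey squares), open symbols marking genes not called. Egfr moves from −0.69 to −0.06 between the fits, Erbb2 changes sign, and Ereg stays above 0 in both.

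Since CPM rises with mRNA length, levels were compared between genes as CPM per kilobase of the longest coding mRNA. With EET the order was Errfi1 (298.5 ± 17.8), Hbegf (24.6 ± 0.444), Egfr (9.68 ± 0.867), Erbb2 (8.78 ± 0.605), Areg (6.89 ± 0.896), Ereg (5.96 ± 0.228), Tgfa (0.901 ± 0.0444) and Nrg1 (0.226 ± 0.0668), as mean CPM per kb ± SD over 3 libraries. In controls it was Errfi1 (339.1 ± 5.74), Hbegf (26.8 ± 0.52), Egfr (15.6 ± 1.27), Erbb2 (10.4 ± 0.343), Ereg (4.83 ± 0.15), Areg (3.67 ± 0.421), Tgfa (1.27 ± 0.0354) and Nrg1 (0.384 ± 0.0138). With EET, the libraries of Egfr and Erbb2 overlapped on this scale, and so did those of Areg and Ereg. In controls no pair of neighbours in the order overlapped. The length used matters most for Hbegf. Divided by the union of its annotated exons, Hbegf came to 12.1 CPM per kb with EET and 13.2 in controls, which put it below Egfr in controls (14.1).

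The summed level of 11 ErbB ligand mRNAs was 44.5, 44.7 and 42.8 CPM per kb in EET libraries, against 43.7, 43.3 and 44.3 in control libraries, so the groups overlapped. Within it, Areg made up 15.6 ± 1.7% with EET and 8.38 ± 0.968% in controls, and Ereg 13.6 ± 0.803% and 11.0 ± 0.424% (SD, n = 3 each). The share of Hbegf was 55.9 ± 1.25% with EET and 61.2 ± 0.528% in controls, and that of Btc 10.1 ± 1.09% and 13.2 ± 0.596%. These values depend on the length used. Divided by union exons, the ligand sum was 29.5, 29.7 and 28.1 CPM per kb in EET libraries, against 27.3, 26.7 and 27.1 in control libraries, and the groups no longer overlapped. Areg then made up 23.6 ± 2.43% with EET and 13.6 ± 1.45% in controls, Ereg 20.5 ± 1.34% and 17.9 ± 0.54%, and Hbegf 41.5 ± 1.15% and 48.7 ± 0.817% (SD, n = 3 each). The summed level of the 4 receptor mRNAs was 21.6, 20.8 and 24.3 CPM per kb in EET libraries, against 30.8, 33.7 and 32.5 in control libraries, with no overlap. These sums and shares are as counted, and the length trend of each library was not removed from them. Receptor mRNAs are long and the Areg mRNA is the shortest of the set. The part of length in these differences was not tested.

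**Figure D4:**
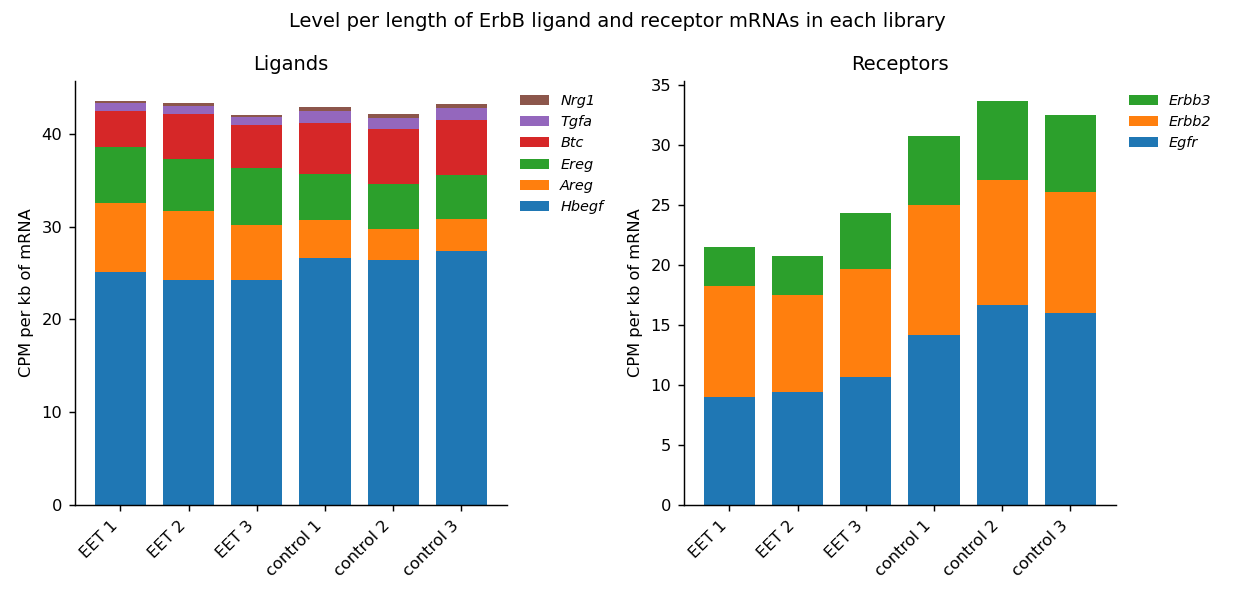
CPM per kb of mRNA for 6 ligand genes (left) and 3 receptor genes (right), stacked in each library. At this length measure the ligand bars of the groups overlap in height while the Areg segment is larger with EET, and the receptor bars are lower in all EET libraries.

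To see whether related members changed unequally, 4 log2 ratios within a library were compared between the groups (exact two-sided permutation test, whose smallest possible p with 3 libraries a group is 0.1). The ratio of Ereg to Areg was 1.56 ± 0.24 with EET and 2.16 ± 0.13 in controls (log2, SD, n = 3 each; exact permutation p = 0.1, adjusted over the 4 ratios 0.1). This difference of −0.60 turned to 0.20 with the trend removed. Erbb2 over Egfr was −1.16 ± 0.16 with EET and −1.61 ± 0.16 in controls, a difference of 0.45, or 0.15 with the trend removed. Errfi1 over Egfr was 3.20 ± 0.04 with EET and 2.70 ± 0.10 in controls, and this difference of 0.51 turned to −0.10 with the trend removed. Hbegf over Tgfa was 3.84 ± 0.10 with EET and 3.46 ± 0.05 in controls, and the difference of 0.37 turned to −0.06. As counted, every EET library lay on 1 side of every control for all 4 ratios, which gave each the smallest p possible. Of all single genes tested, 57.7% also had CPM that did not overlap between the groups. With the trend removed, the unadjusted exact p was 0.1 for Ereg over Areg, in the opposite direction, and 0.1 for Erbb2 over Egfr. It was 0.2 for Errfi1 over Egfr and 0.5 for Hbegf over Tgfa. The part of length in these ratios was not tested.

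Of the 8 other ErbB receptor and ligand genes, 5 were tested, of which 0 rose and 2 fell (Erbb3 and Btc) as counted and with the trend removed. Among all genes tested, 24.6% rose and 23.3% fell as counted, and 17.5% rose and 14.7% fell with the trend removed. Erbb3, the neuregulin receptor, had 19.8, 19.8 and 28.0 CPM in EET libraries, against 34.8, 39.5 and 38.6 CPM in control libraries. The groups did not overlap, and EET 3 was again nearest to the controls. The log2 fold change of Erbb3 was −0.74 ± 0.12 (adjusted p = 0.000187), or −0.27 with the trend removed (adjusted p = 0.0208). In these bulk libraries, fewer cells of a type and less RNA per cell cannot be told apart. Erbb3 is also expressed by Schwann cells, and of 5 Schwann cell markers 4 fell and 1 rose, or 3 fell and 0 rose with the trend removed. Their summed level was 270.6 to 292.8 CPM with EET and 359.2 to 365.6 CPM in controls, and their part in the fall of Erbb3 was not tested. Erbb4, Nrg2 and Nrg3 had 17 counts or fewer in every library and were not tested. Egf (0.901 ± 0.606 CPM with EET and 0.806 ± 0.299 CPM in controls) and Nrg4 (0.68 ± 0.288 and 0.891 ± 0.175 CPM) were tested and not called, with adjusted p of 0.824 and 0.481 (edgeR).

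ERK response genes, which receptor signalling through RAS and MAPK is known to induce, were called in both directions. Of 14 such genes 9 fell and 4 rose, at a median log2 fold change of −0.25, against 9 that fell and 3 that rose once the trend was removed, at −0.21. These were 64.3% lower and 28.6% higher as counted, against 23.3% and 24.6% of all genes tested, and 64.3% and 21.4% with the trend removed, against 14.7% and 17.5%. Dusp4, a phosphatase that acts on ERK, had 47.7, 46.6 and 54.5 CPM in EET libraries, against 83.7, 89.8 and 84.2 CPM in control libraries. Dusp4 fell by 0.79 on the log2 scale (adjusted p = 3.25e-06), or by 0.85 with the trend removed. Ccnd1, which encodes cyclin D1, averaged 427.5 ± 49.0 CPM with EET and 609.5 ± 13.4 CPM in controls (SD, n = 3 each), and fell by 0.51, or by 0.34. Fos and Fosl1, AP-1 genes named after their values were seen, fell by 0.33 and 0.41, and by 0.55 and 0.76 with the trend removed. Phlda1 went the other way, at 63.6 ± 6.69 CPM with EET and 44.0 ± 2.28 CPM in controls (SD, n = 3 each). It rose by 0.53, or by 0.20 with the trend removed. Dusp5 and Etv4, also named after their values were seen, rose by 0.36 and 0.38, and by 0.22 and 0.20 with the trend removed.

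Of 16 genes of adaptors and the RAS-MAPK core 4 rose and 8 fell, or 6 and 6 with the trend removed. The 25.0% that rose as counted lay near the 24.6% of all genes tested, and 50.0% fell, against 23.3% of all. Once the trend was removed 37.5% rose and 37.5% fell, against 17.5% and 14.7% of all. Hras, a RAS GTPase gene, had 88.7, 79.2 and 68.3 CPM in EET libraries, against 42.8, 36.7 and 36.3 CPM in control libraries. Hras rose 2.04-fold (log2 fold change 1.03 ± 0.10, adjusted p = 2.57e-06), and by 1.00 with the trend removed (adjusted p = 4.33e-07). Ptpn11, the SHP2 phosphatase gene, and Sos1, a RAS exchange factor gene, fell by 0.55 and 0.73, and by 0.13 and 0.17 with the trend removed. In the list of 12 genes of PI3K-AKT and other arms 1 rose and 6 fell, or 4 and 1 with the trend removed. As shares these were 8.33% and 50.0%, against 24.6% and 23.3% of all genes, and 33.3% and 8.33%, against 17.5% and 14.7%. Pik3r1 and Pik3cb, PI3K subunit genes, fell by 0.66 and 0.55 as counted and had −0.13 and −0.06 with the trend removed, where neither was called. Some pathway genes had opposite calls in the 2 fits: Pik3ca and Stat3, for example, were lower as counted and higher with the trend removed, and Ier3 the reverse.

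Of 17 genes of receptor turnover and negative feedback 0 rose and 12 fell, or 1 and 5 with the trend removed. The share that fell was 70.6%, against 23.3% of all genes tested, or 29.4%, against 14.7%. The median mRNA of this list is 4648 bp long, and of coding genes of 4500 to 6000 bp 54.6% were lower as counted. Spred2, an inhibitor of RAS-MAPK signalling, fell by 0.70, or by 0.42 with the trend removed, at 71.3 ± 9.59 CPM with EET and 115.7 ± 7.3 CPM in controls (SD, n = 3 each). Usp8, a deubiquitinase that acts on endocytosed receptors, fell by 0.72, or by 0.49. Cblb, a ubiquitin ligase gene, fell by 0.57 as counted and had −0.05 with the trend removed (adjusted p = 0.536). Of 7 genes of ligand shedding 0 rose and 5 fell (71.4%), or 0 and 3 (42.9%) with the trend removed. Adam10, a sheddase of betacellulin and EGF, fell by 0.54, or by 0.28, and Adam12 fell by 0.77, or by 0.17. Adam19 fell by 0.57 as counted and had −0.07 with the trend removed (adjusted p = 0.316). Over all 71 tested genes of the 6 lists, 9 rose and 42 fell as counted and 14 and 26 did so with the trend removed, where the lists' median was −0.065. The 12.7% higher and 59.2% lower as counted compare with 24.6% and 23.3% of all genes tested, and the 19.7% and 36.6% with the trend removed with 17.5% and 14.7%. The median mRNA of these tested list genes is 4016 bp long, against 2982 bp for all genes tested. The genes behind the shares were not matched for length or level.

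**Figure D5:**
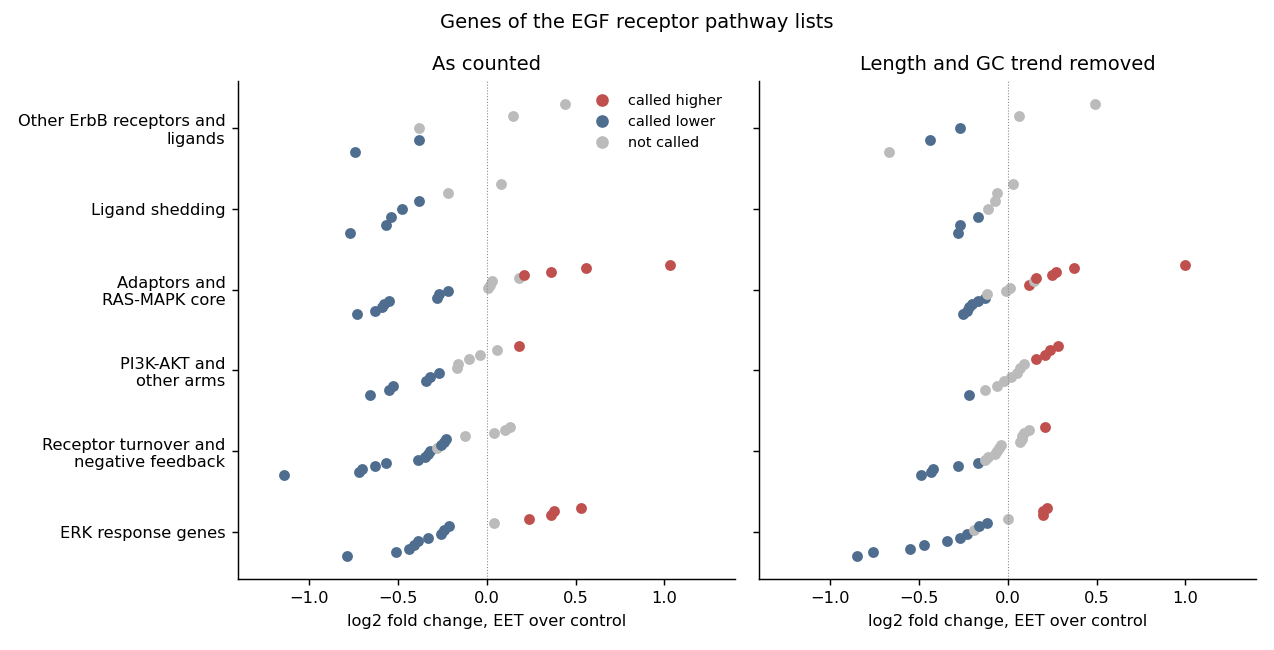
Log2 fold change (EET over control) of each tested gene of the 6 pathway lists, as counted (left) and after removal of the trend on length and GC (right), with genes called higher in red, called lower in blue and not called in grey. Most lists shift towards 0 on the right, while 9 of 14 ERK response genes are lower in each panel, 7 of them in both, and Hras stays near 1.

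The labelled cell type was checked against markers. Beside the marker calls, 24.6% of all genes tested were higher and 23.3% lower as counted, or 17.5% and 14.7% with the trend removed. All 7 muscle stem cell and myoblast markers were detected, at a summed 3477.4 to 3558.1 CPM with EET and 3028.2 to 3301.3 CPM in controls, and 3 rose and 1 fell, or 1 and 0 with the trend removed. Myf5 (log2 fold change 0.26), Myod1 (0.25) and Des (0.54) rose as counted and Pax7 fell (−0.45). With the trend removed only Des was called (0.55), and Pax7 was at −0.0094. Markers of other cell types were present too. The 6 endothelial markers summed to 138.1 to 161.8 CPM with EET and 257.2 to 275.8 CPM in controls, and all 6 fell in both fits. Epithelial markers summed to 45.2 to 53.2 CPM with EET and 68.2 to 84.9 CPM in controls, of which 3 of 6 fell, or 4 with the trend removed, and Krt8 was under 1 CPM in every library. Leukocyte markers summed to 180.6 to 359.9 CPM with EET, where EET 1 was the highest, and 288.6 to 319.8 CPM in controls, with 2 of 6 lower and, with the trend removed, 1 higher as well. Fibro-adipogenic markers summed to 273.0 to 283.9 CPM with EET and 310.1 to 313.2 CPM in controls, with 2 of 6 lower, or 3 with the trend removed. No marker was at 0 in all libraries. Epithelial and leukocyte cells can also express EGF family ligands. The part of these or of the other cell types, endothelial cells among them, in the members' values was not tested.

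Each member's log2 CPM over the 6 libraries was also compared with that of 13493 other coding genes, as a description of points that share the 2 groups and the length trend. The most alike gene was Psma5 for Areg (Pearson r = 0.9998), Herc1 for Egfr (0.9996), Net1 for Errfi1 (0.9987), Lrpprc for Tgfa (0.9981), Tpx2 for Erbb2 (0.9975), Gpd1l for Nrg1 (0.9971), Uap1 for Ereg (0.9959) and Fhdc1 for Hbegf (0.9957). Such likeness was common, since 2353 genes had an r over 0.95 with Areg and 2219 with Egfr, while 148 had it with Hbegf and 152 with Erbb2.

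Exons of antisense or other opposite-strand genes overlap those of the members Ereg (141 bp), Nrg1 (482 bp), Tgfa (118 bp) and Erbb2 (9 bp). Such exons also overlap those of Ccnd1 (1100 bp), Fosl1 (1163 bp), Phlda1 (727 bp), Dusp5 (547 bp), Adam19 (587 and 480 bp), Stat3 (72 bp), Egf and Nrg4. Among the markers named, Des (220 bp) and Krt8 (101 bp) have such partners, as do other genes of the lists. Whether reads were counted by strand is unknown, so reads of these partners could be included.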

How the data were processed

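Bulk RNA was sequenced from 3 EET and 3 control libraries. The deposited table holds raw counts of reads per gene (55494 rows, 25226 with no count in any library, total counts of 30371291 to 37243882 per library). Among low counts, 61.28 to 62.06% were even in control libraries and 64.98 to 65.62% in EET libraries. Whether the mates of a pair were counted apart was not tested. With all counts halved, 2 members were higher and 5 lower. FastQC, cutadapt and DESeq2 are named in the submitters' processing notes; the aligner, counter and strand setting are not stated there. The kit marks strand, per the labels' protocols.

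Groups came from the labels. Genes passing filterByExpr were tested with edgeR 4.0.16 (quasi-likelihood, robust, TMM scaling; R 4.3.3) and Benjamini-Hochberg adjustment over 16097 genes, called at an adjusted p under 0.05. A standard error is the log2 fold change divided by the root of the F statistic. For the second fit, each library's deviation from a gene's mean log2 CPM was smoothed on mRNA length and GC content over protein-coding genes. The smooth (loess, span 0.3) was shifted so that the median deviation left over all genes tested was equal in all libraries. It was then entered as an offset. Gene symbols (53292 rows matched), coordinates and lengths come from GENCODE M21 (GRCm38). Scripts were tested on simulated data.

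Members and lists were chosen with earlier results of these data known. Named were all members, the other ErbB genes, the 3 genes with the smallest p in each other list and the most alike gene of each member; a gene of these lists is not reported here. Fos, Fosl1, Dusp5, Etv4, Pik3ca, Stat3 and Ier3 were named after their values were seen. Alternatives were other scalings, filters and tests (DESeq2 1.42.0, limma 3.58.1), the trend, the replicate number as a block, counts of mates halved and libraries left out.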

Additional observations from a re-analysis of the deposited data

How the results depend on the processing

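Removing the length and GC trend changed most. Genes called higher numbered 2811 instead of 3967 and genes called lower 2371 instead of 3749. As shares of all genes tested these were 17.5% instead of 24.6% and 14.7% instead of 23.3%. Members numbered 1 higher and 2 lower instead of 2 and 5, and pathway genes 14 higher and 26 lower instead of 9 and 42. Erbb2 turned to 0.09, Pik3ca to 0.21, Stat3 to 0.16 and Ier3 to −0.47 on the log2 scale. The ratio differences turned to 0.20 for Ereg over Areg, −0.06 for Hbegf over Tgfa and −0.10 for Errfi1 over Egfr. The cause of the trend was not tested. Same-numbered libraries did not deviate together (correlations −0.00347, −0.0501 and 0.00893). With the replicate number as a block, 4238 genes were higher and 4083 lower, with 2 members higher and 5 lower. The block with the trend removed gave 1 member higher and 2 lower, 15 and 26 pathway genes, and the same values for Erbb2 (0.09), Pik3ca, Stat3 and Ier3. Leaving out 1 library in turn gave 1 to 2 members higher and 2 to 5 lower, beside 3291 to 4121 of all genes higher and 3029 to 3934 lower. It moved Egf between −0.55 and 0.50, and with limma-voom Egf was at −0.0066. Leaving out libraries in the fit with the trend removed left 1 to 2 members lower. This and the ligand shares per union exon were added after seeing the data. Per kb of union exons, the levels averaged over all 6 libraries were 12.6 for Hbegf, 0.758 for Tgfa, 0.159 for Nrg1 and 270.8 for Errfi1. Low counts limit Nrg1, whose row was dropped by the filter at 5 CPM.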
